A study of Oreochromis mossambicus with 12 samples.

Results

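The genes described here are 4 inhibitors that act back on NF-kB signalling: nfkbia, tnfaip3, tnip1 and tnip2. The set was chosen with earlier results of these data known. Its genes were taken from the deposited table by gene symbol, and all 4 of the 4 symbols were found among 28921 gene symbols. The table lists 1 transcript for nfkbia, 3 for tnfaip3, 8 for tnip1 and 2 for tnip2, 14 of 58070 transcripts. Values are FPKM, a read-based level corrected for transcript length and library size, and transcripts were summed per gene.

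NF-kB is a family of dimeric transcription factors that waits in the cytoplasm, bound by IkB proteins, until a receptor for microbes or cytokines starts a chain of ubiquitin and kinase signals that destroys IkB and lets the dimer enter the nucleus. In mammals several of the genes that NF-kB switches on encode its own brakes, so that the response is self-limiting. nfkbia encodes IkB alpha, which holds the dimer in the cytoplasm and removes it from DNA. tnfaip3 encodes A20, an enzyme that edits ubiquitin chains upstream of the IkB kinase, and tnip1 and tnip2 encode ABIN1 and ABIN2, ubiquitin-binding proteins that partner A20. These roles are known mainly from human and mouse.

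The cells were leukocytes from the head kidney of tilapia, labelled Oreochromis mossambicus. The head kidney is a site of blood formation in fish, and the cells had been cultured overnight on collagen before treatment. For 12 h they received PBS, heat-killed Streptococcus agalactiae at 1 bacterium per cell (called bacteria here), sodium nitrite at 1000 μM, or the bacteria and nitrite together (co-treatment), with 3 libraries in each of the 4 groups. The bacteria were dead, so no infection took place, and the leukocytes were a mixture, so fewer cells of a type and less RNA per cell cannot be told apart. Whether the 3 libraries of a group represent different fish or wells is not stated in the labels, so the spread behind each p-value may be technical.

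Facts of the libraries bear on the values below. FPKM sums ran from 422129 to 503740, and from low values the ratio of deepest to shallowest library (PBS replicate 1) was 1.499, against 1.196 among the other 11. The absolute depth is unknown. PBS replicate 1 stood apart from the rest: 4.98% of its FPKM fell on 68 ribosomal protein genes, against 9.08% to 17.6% in the other 11 libraries. The main values that rest on it are also given without it. Among markers of leukocytes, the myeloid factor spi1 (mean 526.6 FPKM) and the neutrophil genes ncf1 (249) and csf3r (144) were present. The T cell gene cd3e had a mean of 1.05 FPKM and was listed at 0 in 2 libraries. The other tested T cell gene, lck, had a mean of 2.04 FPKM and was listed at 0 in no library.

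Every one of the 4 inhibitors stood higher in all 6 libraries that had received bacteria than in all 6 that had not. The share of all tested genes that did so, 6 libraries against 6, was not computed. For 3 libraries against the 3 of PBS, 13.8% of tested genes lay above without overlap with bacteria and 14.4% with co-treatment. tnfaip3 was at 19.15, 15.66 and 23.33 FPKM in PBS replicates 1 to 3 and at 249.61, 204.52 and 163.12 FPKM with bacteria. With nitrite it was at 18.23, 18.66 and 23.13 FPKM, and with co-treatment at 215.34, 173.95 and 157.65 FPKM. The lowest library with bacteria thus lay at 157.65 and the highest without at 23.33 FPKM, and the nitrite libraries lay among those of PBS.

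tnip2 had the lowest mean of the 4 in unstimulated cells. It was at 8.23, 11.90 and 15.18 FPKM with PBS, 158.34, 134.19 and 112.73 FPKM with bacteria, 11.33, 9.83 and 16.31 FPKM with nitrite, and 125.42, 93.21 and 105.74 FPKM with co-treatment. The 6 libraries without bacteria stayed at or under 16.31 FPKM, and the 6 with bacteria at or above 93.21.

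tnip1 was the most abundant of the 4 in every group and the least variable before stimulation. Its values were 72.88, 72.73 and 73.66 FPKM with PBS and 71.73, 70.46 and 77.04 FPKM with nitrite. With bacteria they were 392.03, 317.66 and 352.75 FPKM, and with co-treatment 336.97, 256.56 and 324.24 FPKM. The coefficient of variation over the 3 PBS libraries was 0.683%, and tnip1 already ranked between the 92.0 and 92.9 percentile of tested genes there.

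nfkbia was at 5.20, 37.05 and 32.96 FPKM with PBS, at 136.48, 117.70 and 114.80 FPKM with bacteria, at 46.71, 36.69 and 34.51 FPKM with nitrite, and at 107.93, 90.94 and 76.08 FPKM with co-treatment. PBS replicate 1 was far below the other 5 libraries without bacteria, which lay between 32.96 and 46.71 FPKM. The groups with and without bacteria did not overlap, with or without that library.

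**Figure D1:**
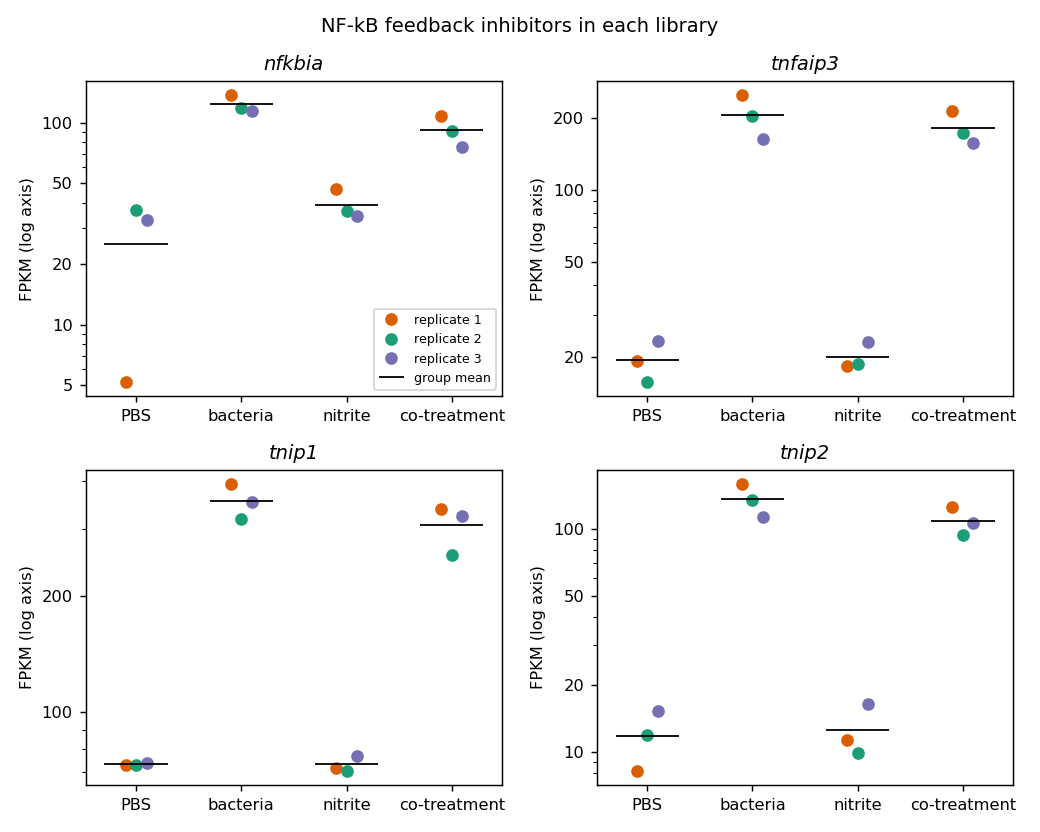
FPKM (log axis) of each inhibitor in the 12 libraries, by group, with points coloured by replicate number and bars at the mean of 3 libraries. All libraries with bacteria lie above all without, and the single low point is nfkbia at 5.20 FPKM in PBS replicate 1.

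The order of the levels differed between stimulated and unstimulated cells. With PBS the means were 73.1 ± 0.499 FPKM for tnip1, 25.1 ± 17.3 for nfkbia, 19.4 ± 3.84 for tnfaip3 and 11.8 ± 3.48 for tnip2 (SD, n = 3 each). The ranges of nfkbia and tnfaip3 overlapped there. In the nitrite group, where nfkbia had no low library, its 39.3 ± 6.51 FPKM stood above tnfaip3 at 20.01 ± 2.71 FPKM without overlap. With bacteria the means were 354 ± 37.2 FPKM for tnip1, 206 ± 43.3 for tnfaip3, 135 ± 22.8 for tnip2 and 123 ± 11.8 for nfkbia, and tnip2 and nfkbia overlapped. Co-treatment gave the same order, at 306 ± 43.2, 182 ± 29.7, 108 ± 16.2 and 91.7 ± 15.9 FPKM, again with an overlap of tnip2 and nfkbia.

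The comparison of bacteria with PBS asked how strongly each inhibitor responded to the bacteria. On the FPKM scale the ratio of group means was 11.5 for tnip2, 10.6 for tnfaip3, 4.91 for nfkbia and 4.85 for tnip1. On the log2(FPKM + 1) scale tnip2 rose by 3.44 ± 0.25 (SE), tnfaip3 by 3.34 ± 0.21, nfkbia by 2.63 ± 0.54 and tnip1 by 2.26 ± 0.16. All 4 passed limma's test at an adjusted p under 0.05, in which 10.7% of the 12423 genes tested were called higher and 26.3% lower. The adjusted p was 6.23e-06 for tnip2, 2.74e-06 for tnfaip3, 0.00391 for nfkbia and 5.17e-06 for tnip1. In this comparison their changes ranked 111th, 120th, 201st and 273rd from the highest of 12423.

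The median change of all tested genes with bacteria was -0.29 as deposited and 0.04 after median-ratio scaling, so each change was larger relative to the median gene: 3.73 for tnip2, 3.63 for tnfaip3, 2.92 for nfkbia and 2.55 for tnip1. The nfkbia estimate depended on PBS replicate 1. Its ratio to the same-numbered PBS library was 26.2 for replicate 1 and 3.18 and 3.48 for replicates 2 and 3, and without PBS replicate 1 the log2 change was 1.78, still called. For the other 3 genes the log2 change with 1 library left out stayed between 3.19 and 3.49 (tnfaip3), 2.18 and 2.33 (tnip1), and 3.22 and 3.63 (tnip2). With the highest transcript in place of the gene sum it was 4.57 ± 0.53 for tnfaip3, 2.81 ± 0.44 for tnip1 and 3.53 ± 0.38 for tnip2 (SE), all still called.

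Cell type markers also moved with bacteria, where 10.7% of all tested genes were called higher and 26.3% lower. The eosinophil peroxidase gene epx had 4714 to 6764 FPKM with PBS and 102 to 175 FPKM with bacteria. Of 4 tested macrophage markers 3 fell, and the sum of all 4 went from 844 to 1466 FPKM to 652 to 768. Most of it was spi1, at 983.7 FPKM in PBS replicate 1 against 514.6 and 541.3 in the other PBS libraries. Means with PBS and with bacteria were 49.6 and 2.37 FPKM for csf1r, 229 and 128 for marco, 129 and 66.6 for mafb, and 680 and 511 for spi1. Ranges for the lists below are, like that of the macrophage list, sums over all listed genes found by symbol. Of 5 tested B cell markers 2 fell (117 to 208 FPKM, then 28.0 to 40.1). That sum was mostly btk (mean 112 FPKM with PBS and 24.6 with bacteria) and swap70 (32.2 and 4.60). The means of cd79a (4.89 and 2.40), cd79b (6.39 and 3.07) and pax5 (1.22 and 0.847) were low in both groups. Of 4 progenitor markers 3 fell (232 to 338, then 61.9 to 79.7), and all 3 tested thrombocyte markers (65.2 to 148, then 20.9 to 53.7) and both tested fibroblast markers (46.1 to 74.0, then 11.6 to 21.6) fell. After median-ratio scaling 1 macrophage marker and 0 thrombocyte markers fell. Without PBS replicate 1 the macrophage count was 2 and the thrombocyte count 1. The thrombocyte count was 0 without PBS replicate 2, bacteria replicate 1 or bacteria replicate 3. Of 2 neutrophil markers 1 rose (326 to 394 FPKM, then 430 to 493, sum of both), a call lost without PBS replicate 2, bacteria replicate 2 or bacteria replicate 3, and 1 of 2 endothelial markers rose while the other fell (2.39 to 22.4, then 37.9 to 79.4 for the list). Neither of 2 tested T cell markers passed (2.91 to 4.45, then 2.22 to 3.50), and 0 erythroid markers reached the level for testing. The fibroblast collagen genes col1a1 and col1a2 were listed at 0 in 12 and 11 of the 12 libraries. The part of such shifts in the rise of the inhibitors was not tested.

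**Figure D2:**
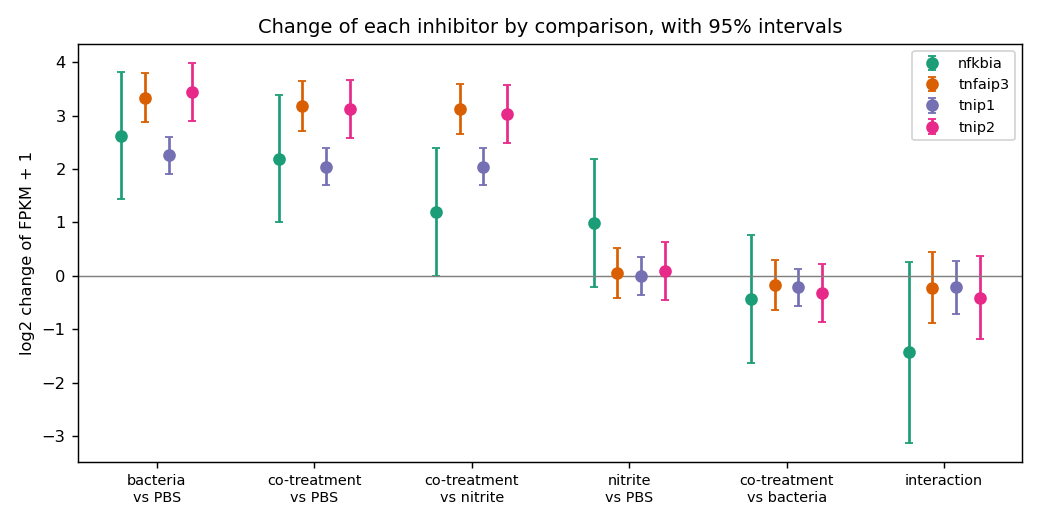
Log2 change of FPKM + 1 of each inhibitor in 6 comparisons, with 95% intervals from limma over all 12 libraries. Intervals lie above 0 for every gene where cells with bacteria are set against cells without, narrowly so for nfkbia in co-treatment against nitrite, and span 0 for the effect of nitrite and for the interaction.

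The inhibitors did not respond to the same extent. For each of the 6 pairs of genes the log2 ratio of their FPKM + 1 was taken within each library, and the 6 libraries with bacteria were set against the 6 without in an exact two-sided permutation test, adjusted over the 6 pairs. The ratio of tnfaip3 to tnip1 was 1.08 higher on the log2 scale with bacteria (means -0.77 with and -1.85 without, exact p = 0.00216, adjusted p = 0.00649). The ratio of tnip1 to tnip2 was 1.09 lower (1.44 and 2.53, exact p = 0.00216, adjusted p = 0.00649). In both pairs no library with bacteria overlapped the libraries without, and the share of other gene pairs that did so was not computed. The p of 0.00216 is the smallest that this permutation test can give for 6 libraries against 6. It treats all libraries as exchangeable and does not keep those of the same replicate number together. In proportion, A20 and ABIN2 transcripts thus gained more than those of ABIN1, which started from a higher level. In FPKM tnip1 gained the most, from a mean of 73.1 with PBS to 354 with bacteria. tnfaip3 went from 19.4 to 206 FPKM and tnip2 from 11.8 to 135.

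For tnfaip3 and tnip2 the ratio moved by -0.01, with means of 0.67 and 0.68 (adjusted p = 0.959, exact permutation test). The ratio of nfkbia to tnfaip3 was 1.32 lower with bacteria, as was that of nfkbia to tnip2 (adjusted p = 0.0227 each, exact permutation test). Without PBS replicate 1, where nfkbia was low, the differences were -1.75 and -1.67. nfkbia to tnip1 differed by -0.24 (adjusted p = 0.862, exact permutation test), and by -0.67 without PBS replicate 1 (adjusted p = 0.00519). These tests count libraries of the same replicate number as separate, although such libraries deviated together.

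The comparison of nitrite with PBS asked what nitrite did in the absence of bacteria. On the log2 scale tnfaip3 was 0.05 ± 0.21 (SE), tnip1 0.00 ± 0.16 and tnip2 0.09 ± 0.25 from PBS, with 95% intervals of -0.41 to 0.52, -0.35 to 0.35 and -0.46 to 0.63. None of the 4 genes passed (adjusted p = 1 each in limma's test), and 0% of all tested genes were called in either direction, with or without the replicate number in the fit; 74 genes had an unadjusted p under 0.05, and 489 with the replicate number. nfkbia stood at 1.00 ± 0.54 (95% interval -0.20 to 2.19). That value rested on PBS replicate 1: between libraries of the same number the FPKM ratio was 8.98 for replicate 1, 0.990 for replicate 2 and 1.05 for replicate 3, and without PBS replicate 1 the log2 change was 0.15.

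In the presence of nitrite the bacteria again raised tnfaip3 (3.12 ± 0.21 on the log2 scale, adjusted p = 3.93e-06 in limma's test), tnip2 (3.03 ± 0.25, adjusted p = 1.62e-05) and tnip1 (2.04 ± 0.16, adjusted p = 1.06e-05). In this comparison 10.6% of tested genes were called higher, and 14.7% with the replicate number in the fit (33.9% and 50.9% in either direction). For nfkbia the change was 1.20 ± 0.54 (adjusted p = 0.110). Its lowest co-treatment library, 76.08 FPKM, was above its highest nitrite library, 46.71 FPKM, and all libraries stood above without overlap in 15.7% of tested genes. The spread was estimated over all 4 groups, and without PBS replicate 1, a library outside this contrast, the change was the same 1.20 with an SE of 0.16 and passed (adjusted p = 0.000435). The ratio between same-numbered libraries was 2.21 to 2.48 for nfkbia, 6.82 to 11.8 for tnfaip3, 3.64 to 4.70 for tnip1 and 6.48 to 11.1 for tnip2.

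Against PBS, which also served the first comparison, co-treatment raised tnfaip3 by 3.17 ± 0.21, tnip2 by 3.12 ± 0.25, nfkbia by 2.20 ± 0.54 and tnip1 by 2.04 ± 0.16 (SE), all 4 called where 11.4% of tested genes were called higher. The adjusted p in limma's test was 3.30e-06, 1.10e-05, 0.00886 and 9.50e-06. Without PBS replicate 1 the nfkbia change was 1.35, still called. Averaged over cells with and without nitrite, the rise with bacteria was 3.24 ± 0.18 for tnip2, 3.23 ± 0.15 for tnfaip3, 2.15 ± 0.11 for tnip1 and 1.91 ± 0.38 for nfkbia (1.49 ± 0.12 without PBS replicate 1). This average, over 6 libraries on each side, had the largest adjusted p for nfkbia (0.00173), and 15.2% of tested genes were called higher in it.

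Co-treatment against bacteria asked whether nitrite altered the induced levels. All 4 inhibitors were lower with co-treatment in each of the 3 pairs of libraries with the same number, 12 of 12 pairs. The difference between the group means was -25.5% for nfkbia, -19.99% for tnip2, -13.6% for tnip1 and -11.4% for tnfaip3. Between same-numbered libraries the FPKM ratio was 0.663 to 0.791 for nfkbia, 0.695 to 0.938 for tnip2, 0.808 to 0.919 for tnip1 and 0.850 to 0.967 for tnfaip3. Such a uniform direction was common for single genes: 24% of all tested genes were lower in all 3 pairs, and 32.8% of the 1330 genes that were higher with bacteria than with PBS. Those 1330 genes were chosen by the same bacteria libraries, which in itself favours lower values with co-treatment. How often 4 genes would all be lower was not computed. The 12 pairs share 6 libraries and are not independent.

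None of the 4 decreases passed limma's test. The log2 change was -0.43 ± 0.54 for nfkbia, -0.32 ± 0.25 for tnip2, -0.22 ± 0.16 for tnip1 and -0.16 ± 0.21 for tnfaip3 (adjusted p = 1.00 each), and 0.00805% of tested genes, 1 gene, were called at all. The 95% intervals were -1.63 to 0.77, -0.86 to 0.23, -0.56 to 0.13 and -0.63 to 0.30. For nfkbia the spread again came largely from PBS replicate 1, a library outside this contrast, and without it the same -0.43 had an SE of 0.16 and an interval of -0.80 to -0.06, below 0 (unadjusted p = 0.0257, adjusted p = 1 in limma's test). In nfkbia the groups did not overlap, the highest co-treatment library being at 107.93 and the lowest bacteria library at 114.80 FPKM, and 3.85% of tested genes showed co-treatment below bacteria without overlap. The other 3 genes overlapped. With the replicate number in the fit none of the 4 genes passed either, and 0.0322% of tested genes were called.

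**Figure D3:**
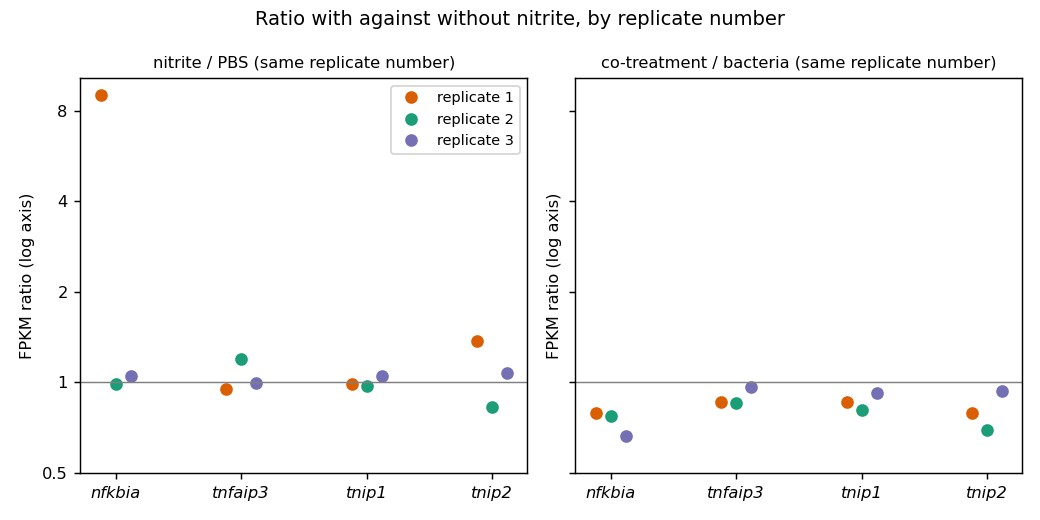
FPKM ratio (log axis) of libraries with nitrite to those without, for the same replicate number, in cells without bacteria (left) and with bacteria (right). All 12 ratios on the right lie below 1, while 6 of 12 on the left do, and nfkbia replicate 1 on the left stands at 8.98.

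The interaction, which tests whether the response to bacteria differed with nitrite present, was -1.43 ± 0.77 for nfkbia, -0.40 ± 0.35 for tnip2, -0.22 ± 0.30 for tnfaip3 and -0.21 ± 0.22 for tnip1 on the log2 scale (SE, adjusted p = 1 each in limma's test). In this contrast 0.00805% of tested genes were called. The 95% intervals were -3.12 to 0.26 for nfkbia and -0.71 to 0.28 for tnip1. The width for nfkbia rested on PBS replicate 1: without that library the value was -0.58 ± 0.24 with an interval of -1.13 to -0.03, which lay below 0 (unadjusted p = 0.0394, adjusted p = 1.00 in limma's test).

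The replicate number shaped the levels as well. In both groups with bacteria, replicate 1 was the highest library for all 4 inhibitors, 8 of 8 cases. In 19.7% of tested genes replicate 1 was highest in both groups. In cells without bacteria replicate 3 was highest in 6 of 8 cases, for tnfaip3, tnip1 and tnip2 in both groups, where 30.7% of tested genes had it highest in both. For tnfaip3 the library that was lowest of its group with bacteria, replicate 3, was thus the highest without, and the ratio of bacteria to PBS was 13.0, 13.1 and 6.99 in replicates 1, 2 and 3. For tnip2 these ratios were 19.2, 11.3 and 7.43, and for tnip1 5.38, 4.37 and 4.79.

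Single transcripts showed where the gene sums were composed differently. The transcript rna36194 held 97.5% or more of the tnfaip3 sum in the 6 libraries with bacteria and rose from 14.07 and 14.09 FPKM in PBS replicates 2 and 3 to 163.03 FPKM or more with bacteria alone. In PBS replicate 1 it held 9.09% (1.74 FPKM), and rna36195 held 90.9% (17.41 FPKM), a transcript that did not exceed 4.62 FPKM in the other 11 libraries. The third transcript, rna36193, was at 9.06 FPKM in PBS replicate 3 and 5.11 FPKM in nitrite replicate 3, which were 38.8% and 22.1% of the gene, and at no more than 2.30 FPKM in the other 10 libraries.

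For tnip1 the transcripts rna4100 and rna4102 carried most of the sum. With bacteria, rna4100 held 47.7% to 51.5% and rna4102 34.2% to 36.1% over 6 libraries, and without bacteria their medians were 53.2% and 32.7%. PBS replicate 1 was again different, with rna4100 at 12.4% (9.04 FPKM) and rna4101 at 37.5% (27.36 FPKM), while rna4101 stayed at or below 4.26 FPKM in the other 11. The summed level of tnip1 in that library, 72.88 FPKM, lay between the other PBS libraries at 72.73 and 73.66 FPKM. For tnip2 the share of rna17139 was 75.7% to 85.8% with bacteria and 49.9% to 89.7% without.

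**Figure D4:**
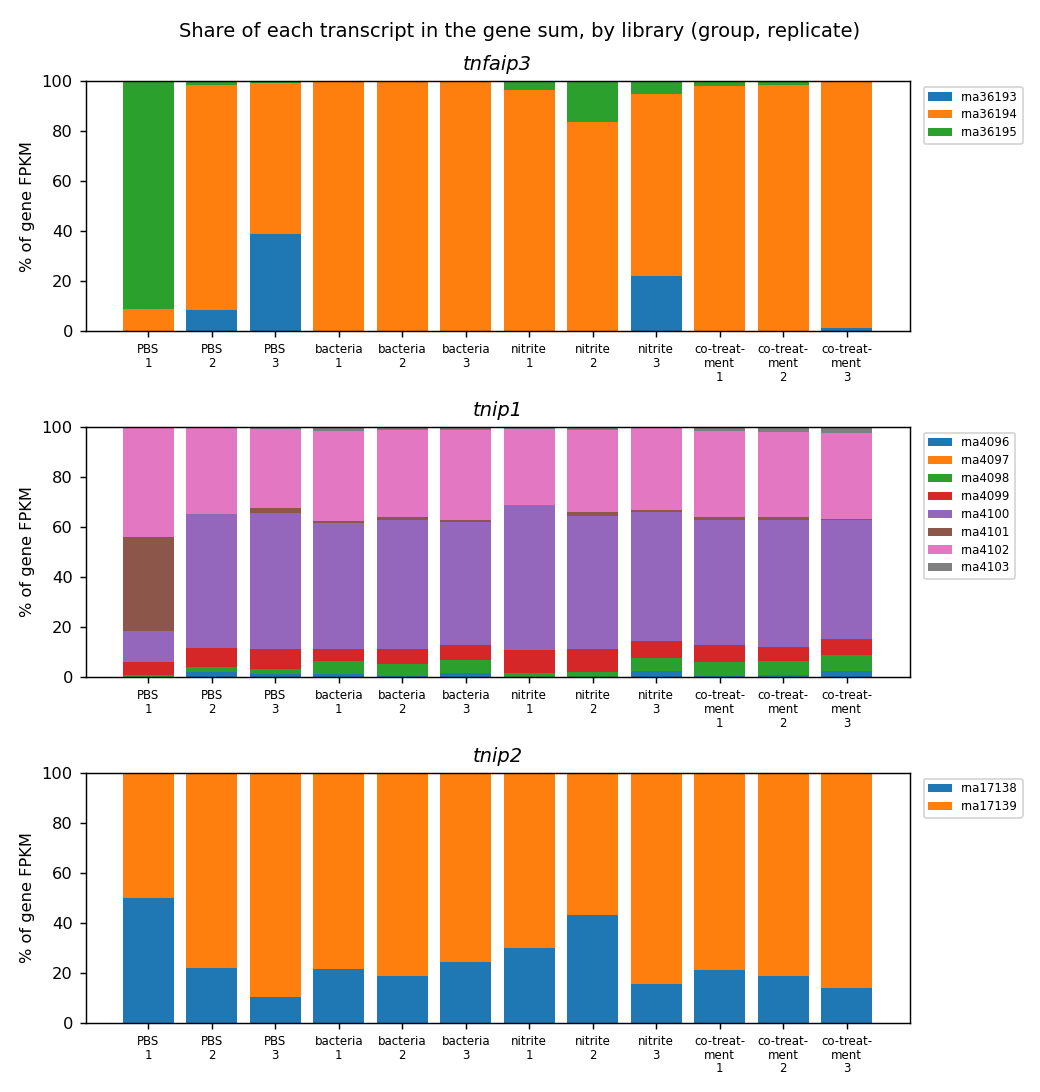
Share of each listed transcript in the FPKM sum of tnfaip3, tnip1 and tnip2, in percent, for the 12 libraries by group and replicate number. PBS replicate 1 differs from the rest in tnfaip3 (rna36195 at 90.9%) and tnip1 (rna4101 at 37.5%), and tnip1 shares are nearly constant among the 6 libraries with bacteria.

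That library differed in the same ways over the table. Among 4484 genes with several transcripts whose leading transcript was the same in the other 5 libraries without bacteria, another transcript led in PBS replicate 1 in 20.1%. For each of those 5 libraries in turn the share was 1.40% to 2.53%, among 3635 to 3677 genes. Those genes were chosen in the same way, so PBS replicate 1 was among the libraries that had to agree. nfkbia, with 1 listed transcript, was 2.45 log2 units below the lowest of the other 5 libraries in PBS replicate 1. In 369 genes, 2.97% of those tested, PBS replicate 1 lay at least 2 log2 units below, and in 0 at least 2 above. For none of the other 5 libraries did a gene lie so far below. The limit of 2 units was chosen after the values were seen.

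The next genes are other parts of the NF-kB pathway, listed by known role and matched by symbol. Of 8 tested members of the IkB family and the NF-kB subunits, 7 rose with bacteria and 0 fell, where 10.7% of all tested genes rose and 26.3% fell. The median log2 change was 1.57 against -0.29 over all tested genes. nfkbid, which encodes the nuclear protein IkB delta, was at 0.65, 0.67 and 0.62 FPKM with PBS and 11.84, 10.35 and 8.48 with bacteria (2.76 ± 0.22, SE). It was at 5.55, 4.36 and 9.12 FPKM with co-treatment. nfkbie, which encodes IkB epsilon, a cytoplasmic inhibitor like IkB alpha, rose by 2.14 ± 0.47 from 33.6 ± 21.1 to 128 ± 11.1 FPKM (SD, n = 3), and by 1.51 without PBS replicate 1. bcl3, an atypical IkB protein of the nucleus, rose by 1.98 ± 0.24.

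The subunit genes relb (1.15 ± 0.14), nfkb1 (1.03 ± 0.24) and rel (0.81 ± 0.16) also rose. nfkb2 was at 2.53 ± 0.78, with 3.26, 61.97 and 56.69 FPKM over the PBS libraries and 140.6 to 146.8 with bacteria. Without PBS replicate 1 its change was 1.25, and its call was lost after quantile normalization, with no filter on low values and without any 1 of the bacteria libraries (highest adjusted p = 0.0705 in limma's test). nfkbil1 was at 0.02 ± 0.17. In 7 of the 8 genes co-treatment was below bacteria in the mean log2 value, and 0 of 8 passed. The share of all tested genes with that sign was not computed, and their median change was -0.0088. In the lists described below, that sign was found in 10 of 10 tested genes listed as A20 partners and other brakes. It was found in 12 of 20 signal proteins, 5 of 10 mammalian targets and 1 of 10 feedback brakes of other signalling routes.

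Partners of A20 and other brakes on the pathway formed the next list. Of its 18 symbols 11 were found and 10 tested. The listed tax1bp1, itch and tnip3 were not among those tested, so the counts do not cover them. The list also held the signal adaptor tradd and the ubiquitin ligase peli1, which are not plainly brakes. Of its 10 tested genes 1 rose and 2 fell, near the shares of all tested genes (10.7% and 26.3%), with a median of -0.06. The gene that rose was traf3, an adaptor that restrains the alternative NF-kB pathway (2.32 ± 0.57, and 1.42 without PBS replicate 1, where it was at 1.29 FPKM against 13.74 and 13.56 in the other PBS libraries). rnf11, a partner of A20 in the ubiquitin-editing complex (-0.67 ± 0.20, and -0.44 without PBS replicate 1), and peli1 (-0.64 ± 0.19) fell, but after median-ratio scaling 2 genes of the list rose and 0 fell. The count of 2 that fell was 0 without bacteria replicate 1 and 1 without PBS replicate 2 or 3 or bacteria replicate 2 or 3. The deubiquitinase genes cyld (-0.06 ± 0.15), otulin (-0.07 ± 0.20) and otud7b (-0.56 ± 0.32) did not pass. Neither did tollip (-0.08 ± 0.17), commd1 (0.09 ± 0.18), n4bp1 (0.40 ± 0.18, and 0.23 without PBS replicate 1) or tradd (0.71 ± 0.41, and 0.09 without PBS replicate 1, where it was at 3.12 FPKM against 13.58 and 14.01 in the other PBS libraries). n4bp1 passed in limma's test under median-ratio scaling and under quantile normalization, with adjusted p of 0.0123 and 0.0105.

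Of 29 listed proteins that carry the signal from receptors to the IkB kinase, 20 were found by symbol and tested. Among them 6 rose and 0 fell, with a median of 0.29, where 10.7% of all tested genes rose and 26.3% fell. After median-ratio scaling 12 rose. Of all tested genes 3825 were called in either direction after that scaling, and the share called higher is not given. card9, an adaptor downstream of C-type lectin receptors (2.47 ± 0.30), ripk2, the kinase of NOD receptors (2.17 ± 0.21), irak1, a kinase of Toll-like receptors (2.05 ± 0.16), and myd88, the adaptor that recruits it (1.74 ± 0.24), had the smallest adjusted p. Of 27 symbols listed for NF-kB targets known in mammals, 11 were found and 10 tested. Of these 10 genes 8 rose and 1 fell, with a median of 3.60, against 2.26 to 3.44 for the 4 inhibitors. The listed tnf, il1b, il6, birc3, traf1, icam1 and nos2 were not among those tested, so the counts and the median do not cover them. Without PBS replicate 1 the inhibitors ran from 1.78 (nfkbia) to 3.34 (tnfaip3). il12b, ptx3, cd83 and ptgs2 had the smallest adjusted p, with log2 changes of 4.81, 5.15, 3.80 and 3.72. The gene that fell was sod2, the mitochondrial superoxide dismutase (-1.57 ± 0.29), named here after its value was seen.

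**Figure D5:**
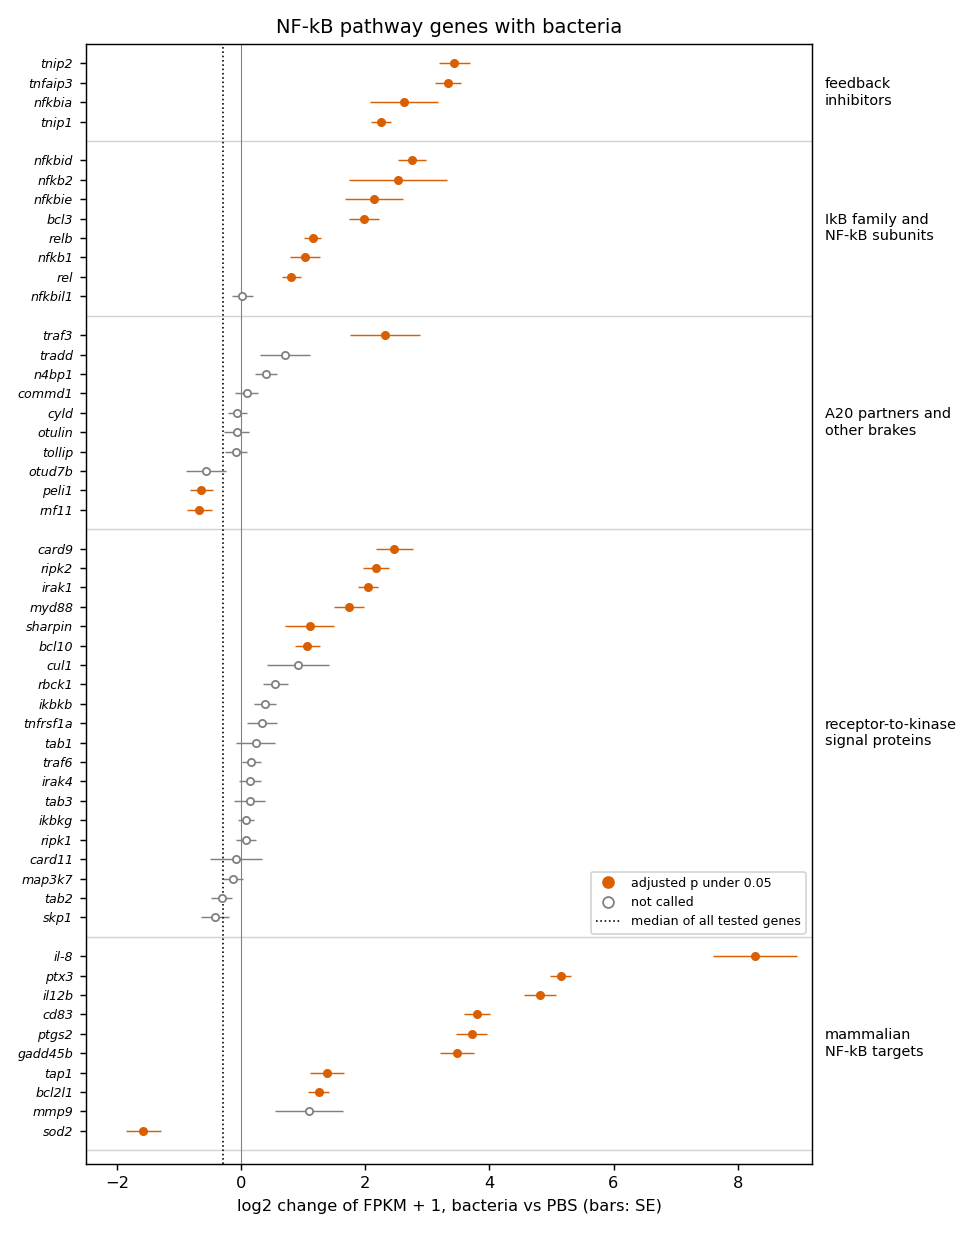
Log2 change of FPKM + 1 with bacteria against PBS for the 4 inhibitors and the tested genes of 4 NF-kB pathway lists, with SE bars, filled where the adjusted p was under 0.05, and a dotted line at the median of all tested genes. The inhibitors and 7 of 8 IkB and subunit genes lie to the right, while 7 of the 10 tested genes listed as A20 partners and other brakes were not called. The listed tax1bp1, itch and tnip3 were not tested.

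The genes whose pattern was most like each inhibitor were found by Pearson's r of log2(FPKM + 1) over the 12 libraries, which fall into 6 with and 6 without bacteria and share replicate numbers, so r is only a measure of likeness. For tnfaip3 they were crispld2 (r = 0.996), acod1 (0.996), bmp2k (0.996), ktn1 (0.995) and kctd12 (0.995), and for tnip2 bmp2k (0.997), acod1 (0.997), suox (0.994), snx18 (0.994) and ktn1 (0.993). For tnip1 they were il12b (0.998), acod1 (0.995), crispld2 (0.994), pou2f2 (0.994) and snx10 (0.994). acod1, the gene of the itaconate-producing enzyme, stood in all 3 of those lists, with r of 0.810, 0.985 and 0.852 to tnfaip3, tnip2 and tnip1 within the 6 libraries with bacteria alone. Over all 5 neighbours, r there ran from 0.724 to 0.979 for tnfaip3, 0.473 to 0.985 for tnip2 and 0.699 to 0.907 for tnip1. Within the 6 libraries without bacteria it ran from 0.521 to 0.769, 0.850 to 0.977 and 0.0845 to 0.833. Over the 12 libraries, 181, 171 and 151 of 4787 candidate genes had r above 0.95 with tnfaip3, tnip2 and tnip1.

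nfkbia had other neighbours, wwp2 (r = 0.987), fam96a (0.980), dennd4b (0.977), hpse (0.975) and nfatc2ip (0.971), with r of 0.958 to 0.990 within the 6 libraries without bacteria, which include PBS replicate 1. Within the 6 libraries with bacteria their r was 0.527 to 0.707. Over the 12 libraries, 21 of 4787 candidate genes had r above 0.95 with nfkbia. Among the inhibitors themselves r over 12 libraries was 0.990 to 0.993 for the pairs of tnfaip3, tnip1 and tnip2, and 0.801 to 0.846 for pairs with nfkbia. Within the 6 libraries with bacteria r was 0.494 to 0.863 over all 6 pairs. Without bacteria and without PBS replicate 1 (5 libraries) it was 0.626 to 0.930 among the other 3 and -0.55 to -0.48 for pairs with nfkbia.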

How the data were processed

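Per the file headers, the authors deposited FPKM per transcript, to 2 decimals, with a gene symbol for each. The tools listed, per the submitters' processing notes, are HISAT2 2.0.1, HTSeq 0.6.1 and Trimmomatic 0.30. Which genome build, gene annotation and FPKM program lay behind the values is not given in the sources used here, and no sequences or positions were used. How the FPKM tool divided reads among transcripts affects single transcripts and the exact zeros, so gene sums are the main values.

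FPKM were summed per trimmed symbol. The 12423 genes whose mean reached 1 FPKM, all 4 inhibitors among them, were fitted as log2(FPKM + 1) in R 4.3.3 using limma 3.58.1 (trended empirical Bayes, all 12 libraries, 8 residual degrees of freedom), with Benjamini-Hochberg adjustment over all tested genes and a threshold of 0.05. Such log2 changes understate those of low genes. The contrasts were the 5 differences between groups, the interaction and 2 averages over the other treatment. Ratios between inhibitors were tested by exact permutation (scipy 1.17.1). The limma step was tested on simulated data with independent noise in each library, and the outcome is not given here. Those data held neither shared deviations of same-numbered libraries nor a library like PBS replicate 1, so they do not speak to either. FPKM hold no counts, so no counting error is given.

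Replicate numbers come from the titles. Each gene was set against the mean of its group. All 18 same-numbered pairs from different groups then deviated together (r of 0.416 to 0.919 across genes), so the numbers were taken to pair the libraries. No differently numbered pair exceeded -0.0044, but with same-numbered pairs above 0 this centring itself pulls the others below 0. The fit with the number as a block was an alternative. The others were pseudocounts of 0.1 and 3, leaving out the filter or raising it to 5 FPKM, median-ratio scaling (with and without the block), quantile normalization, the highest transcript per symbol in place of the sum, and leaving out each library.

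The inhibitors, pathway lists and markers were chosen with earlier results of these data known. Named genes are the 4 inhibitors, the 5 genes of highest r with each (mean of at least 5 FPKM, no LOC identifier), every tested gene of the first 2 pathway lists and up to 4 of the smallest adjusted p with bacteria from the others.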

Additional observations from a re-analysis of the deposited data

How the results depend on the processing

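The calls of tnfaip3, tnip1 and tnip2 with bacteria, with or without nitrite, held under all 9 other settings and all 12 fits with a library left out, and so did those of nfkbia against PBS. The replicate block changed no call of the 4 inhibitors. nfkbia in co-treatment against nitrite ran from 1.08 to 1.33 with a library left out and passed only without PBS replicate 1. The ratio of nfkbia to tnip1 ran from -0.67 to -0.0797 with a library left out, and it was -0.44 with the highest transcript (adjusted p = 0.0156, exact permutation test); the other 4 ratios that were not near 0 kept their calls. Values near 0 changed sign without being called. tnip1 with nitrite against PBS was 0.0387 under quantile normalization, 0.0295 under median-ratio scaling (0.0295 also when the replicate block was added) and 0.67 with the highest transcript, and ran from -0.0394 to 0.0241 with a library left out; tnfaip3 ran from -0.0836 to 0.19, and was 1.04 with the highest transcript, and tnip2 from -0.13 to 0.28. The interaction with the highest transcript was -1.23 for tnfaip3 and -0.91 for tnip1, neither called. Averaged over bacteria, the nitrite change with a library left out ran from -0.14 to 0.52 for nfkbia and from -0.13 to 0.0191 for tnfaip3, and with the highest transcript it was 0.43 for tnfaip3 and 0.22 for tnip1. The ratio of tnfaip3 to tnip2 was 0.0626 with a pseudocount of 3 and 0.58 with the highest transcript, and ran from -0.0680 to 0.0835. The cause of these changes was not tested. Counts of called genes moved by over 1.5 times in co-treatment against bacteria (1, and 5 with no filter, 4 with the block and 4 with the block and median-ratio scaling), in co-treatment against nitrite (4206, and 6329 with the block), in the average over nitrite (6593, and 4348 at a minimum mean of 5 FPKM) and in the average over bacteria (1, and 4 with the block, 5 with the block and median-ratio scaling). The promoter motif search planned was not run, since no promoter sequences were used here. Precision is limited by 3 libraries a group and by an unknown absolute depth.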

Other observations

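Feedback brakes of other signalling routes, listed by role like the pathway genes, were also compared between bacteria and PBS. Of 10 tested genes 2 rose and 1 fell, near the shares of all tested genes (10.7% higher and 26.3% lower), with a median log2 change of 0.21. socs1 (2.76 ± 0.50, SE) and socs3 (2.43 ± 0.60, and 1.92 without PBS replicate 1), suppressors of cytokine receptor signalling, rose by amounts within the range of the 4 NF-kB inhibitors (2.26 to 3.44). Without PBS replicate 1 the inhibitors ran from 1.78 (nfkbia) to 3.34 (tnfaip3). zfp36l1, which promotes the decay of short-lived mRNAs, fell by 1.90 ± 0.27. The dual-specificity phosphatase genes dusp1 (0.41 ± 0.33), dusp4 (-0.14 ± 0.32), dusp5 (0.54 ± 0.37) and dusp6 (-0.09 ± 0.28) did not pass, with dusp1, dusp5 and dusp6 at 0.13, 0.13 and -0.41 without PBS replicate 1, and nor did the stress factor atf3 (0.00 ± 0.19). cish (-0.89 ± 0.41, adjusted p = 0.115 in limma's test) and il10 (0.65 ± 0.29, adjusted p = 0.105) did not pass either. Both passed with the replicate block (0.00988 and 0.0308), cish also without PBS replicate 1 (-1.35, 0.0145) and il10 also after median-ratio scaling (0.0377) and quantile normalization (0.0218), among others. After median-ratio scaling 3 genes of the list rose and 1 fell. With nitrite added to bacteria, 0 of these 10 genes were lower in all 3 same-numbered pairs, against all 4 of the NF-kB inhibitors. Of all tested genes 24% were so, and 32.8% of those higher with bacteria than with PBS, which were chosen by the same bacteria libraries. The count was 5 of 8 in the IkB and subunit list and 5 of 10 in the list of A20 partners and other brakes. It was 8 of 20 among the signal proteins and 3 of 10 among the mammalian targets. Whether the groups of genes differ was not tested.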
